A study of Mus musculus with 4 samples.

Results

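The genes described here encode the enzymes that load amino acids onto transfer RNA (tRNA) and the enzymes that modify, trim or splice tRNA. They were chosen by gene symbol, with a name pattern set when earlier results of these data were known. It takes the aminoacyl-tRNA synthetases, the synthetase scaffold genes Aimp1 and Aimp2, and families such as Trmt, Pus, Nsun, Elp and Elac. The pattern found 38 genes among 4878 in the table. They were 18 cytosolic synthetases, 5 mitochondrial synthetases, 1 scaffold gene, 13 modification enzymes and 1 enzyme of tRNA end processing. The samples were mouse embryonic fibroblasts at passages 5 to 8, whose strain, sex and embryonic age the sources used here do not give. Knockdown cells had been transfected with Si-eIF1A (X+18), an siRNA against the translation initiation factor eIF1A (2 libraries), and the control cells with Si-Negative control (2 libraries). Both groups received the same transfection reagent, Lipofectamine RNAimax, and the time from transfection to harvest is not given. Bulk MARS-seq, a method that reads polyadenylated RNA near its 3′ end, gave values that the authors deposited as normalised counts.

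An aminoacyl-tRNA synthetase joins an amino acid to the tRNA that reads its codons, so that the ribosome has charged tRNA to work with. Most amino acids have a cytosolic enzyme and a mitochondrial one made from separate nuclear genes, whereas Gars and Kars each encode both forms. After transcription, tRNA is trimmed at its ends and altered at many bases by methyltransferases, pseudouridine synthases and enzymes of the anticodon loop, which affect how stable the tRNA is and how it decodes. When amino acids are short or translation is disturbed, mammalian cells raise the transcription factor ATF4, and many cytosolic synthetase genes are known targets of it.

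Reads recovered from the normalised counts, summed over the genes of the table, came to 2152331 and 2352111 in knockdown libraries 1 and 2 and to 2182825 and 2595625 in control libraries 1 and 2. The targeted genes were not analysed here, so the depth of the knockdown was not checked. Of 9 fibroblast markers Vim alone could be examined, at 8437 and 10504 normalised counts in knockdown libraries and 20136 and 15531 in control libraries. Markers of macrophages, endothelium and epithelium were not analysed here. Nothing in the labels ties the 2 libraries of a group to separate cultures. The p-values therefore reflect spread between libraries, part or all of which could be technical. The main test, limma, draws the variance of a gene towards that of genes with like means. A p-value therefore does not measure the spread of that gene alone. In bulk libraries fewer cells that express a gene and less RNA per cell cannot be told apart.

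Messenger RNA of most charging enzymes and of some modification enzymes was higher in knockdown fibroblasts. Of 37 members tested, 20 were called higher and 0 lower in knockdown libraries (limma, Benjamini-Hochberg adjusted p under 0.05 over 4605 genes). Among all genes tested 15.9% were called higher and 21.6% lower. Members called lower also numbered 0 at an unadjusted p under 0.05, 0 by edgeR and 0 by DESeq2. At least 2-fold rises were called in 15 members, against 9.84% of all genes. The median log2 fold change on the log2(normalised count + 1) scale was 0.98 for the members and −0.01 for all genes tested. Both knockdown libraries lay above both control libraries in 29 of the 37 members, as they did in 32.4% of all genes. They lay below in 2 members, Elp2 and Tyw1, as they did in 35.5% of all genes. Sars and Cdkal1, among the 29, reached the mean of 5 needed for testing only through their knockdown values.

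Nsun2, which methylates cytosines of tRNA, is the member that was not tested. It had 1 and 3 reads in knockdown libraries and 1 read in each control library, so no fold is given. Over all members, reads per gene and library ran from 1 to 6098, and 5 members had under 10 reads in some library.

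The members took 0.994% and 1.28% of the reads of the table in knockdown libraries 1 and 2, and 0.471% and 0.456% in control libraries 1 and 2. Knockdown library 2 held the largest share. It was above knockdown library 1 in 24 of the 38 members, and control library 2 was above control library 1 in 19. Among all 4605 genes tested these counts were 2411 and 1983. Without knockdown replicate 2, 13 members were called higher, against 9.51% of all genes, and each of the 13 was among the 20. The calls lost there were Aimp1, Elac2, Eprs, Hars, Pus1, Vars and Wars. No other called member lost its call under any of the alternatives in the closing part.

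The count depends on the scaling of the libraries. With all libraries brought to equal totals, 29 members were called higher and 0 lower, while 28.2% of all genes were called higher and 13.1% lower. The median of all genes then stood at 0.34 on the log2 scale. Relative to the median of all genes, the members' median was 0.99 as deposited and 1.00 at equal totals. Scaling a library shifts all its genes nearly alike, so this difference could hardly change and is no check on the scaling. Elp3, Kars and Trmt112 changed sign between these scalings, and none of these 3 was called under either.

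**Figure D1:**
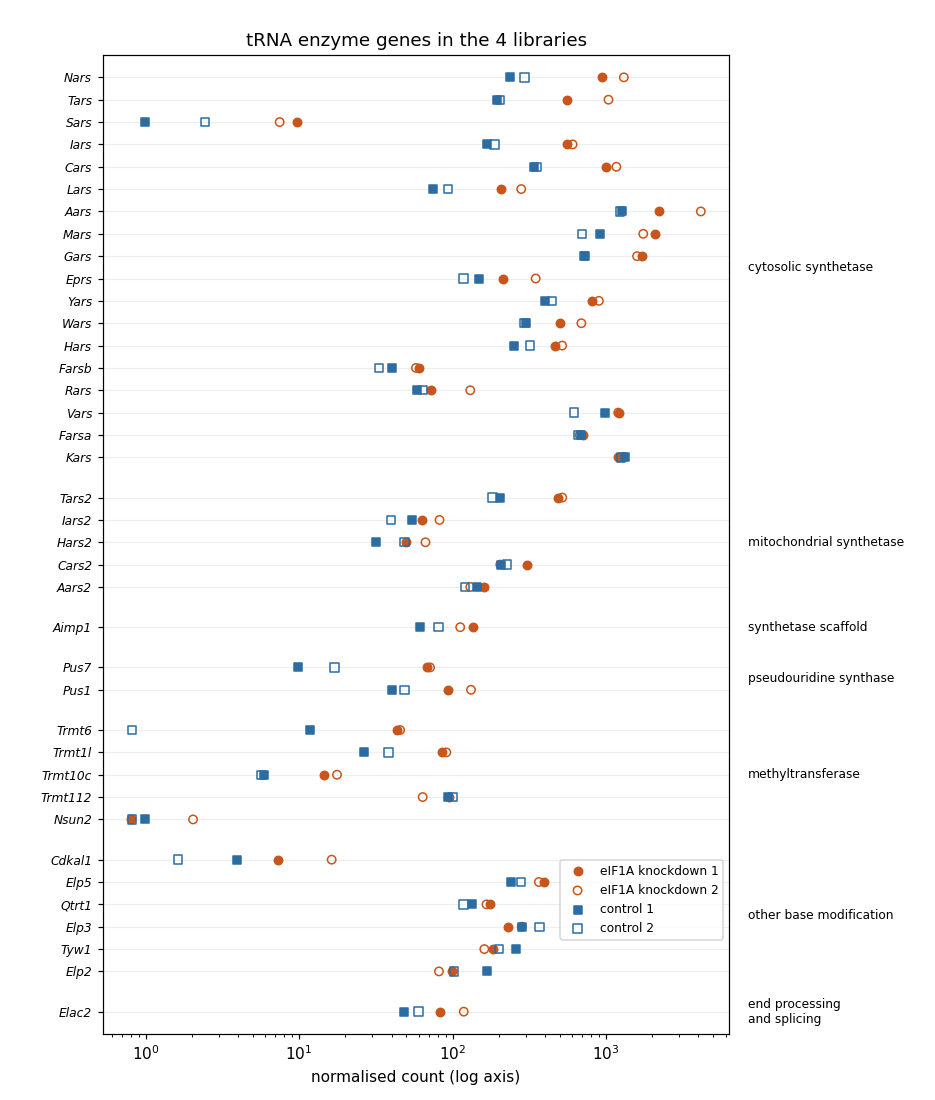
Normalised counts (log axis) of the 38 genes in the 4 libraries, grouped by enzyme class and ordered by fold change, with filled and open circles for eIF1A knockdown 1 and 2 and filled and open squares for control 1 and 2. Circles lie to the right of squares for most cytosolic synthetases, whereas Kars and Farsa have all 4 points close together.

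Cytosolic synthetases were called higher in 13 of 18 cases and lower in none, beside 15.9% and 21.6% of all genes. The median log2 fold change of the class was 1.12. Nars, the asparagine enzyme, had the largest fold among those called, and Tars, Iars and Cars followed. The fold changes of the class ran from −0.04 for Kars to 2.07 for Nars. Dars and Qars, the remaining cytosolic enzymes of the standard set, were not analysed here.

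Nars was at 947 and 1306 normalised counts in knockdown libraries and at 237 and 294 in control libraries. The groups lay far apart, and the log2 fold change was 2.07 with a standard error of 0.23 (limma, adjusted p = 1.13e-06). Tars, the threonine enzyme, had 558 and 1037 in knockdown libraries, against 194 and 204 in control libraries. The knockdown libraries differed from each other by 1.86 times, and both exceeded the controls (3.81-fold; limma, adjusted p = 1.23e-05). Tars rose 2.80-fold to 5.20-fold as each library was left out in turn. Iars, which charges isoleucine, had 555 and 605 in knockdown libraries and 168 and 188 in control libraries. Each pair was close, and the rise was 3.25-fold (limma, adjusted p = 8.49e-06). Cars, which charges cysteine, stood at 1001 and 1167 in knockdown libraries and at 340 and 351 in control libraries, a 3.12-fold rise (limma, adjusted p = 7.78e-06).

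Lars, the leucine enzyme, had 208 and 280 normalised counts in knockdown libraries and 74.8 and 93.3 in control libraries (2.86-fold). Aars, the alanine enzyme and the member with the most reads, had 2211 and 4142 in knockdown libraries and 1272 and 1232 in control libraries. Knockdown library 2 was 1.87 times knockdown library 1, and the mean rise of 2.42-fold was 1.77-fold to 3.31-fold as each library was left out (limma, adjusted p = 6.77e-04). Mars, which charges methionine and so also loads the initiator tRNA, had 2072 and 1746 in knockdown libraries and 906 and 696 in control libraries (2.39-fold). Gars, the glycine enzyme of both cytosol and mitochondria, had 1717 and 1592 in knockdown libraries and 724 and 721 in control libraries (2.29-fold). In these 4 genes the lowest knockdown value exceeded the highest control value by over 1.5 times. Exons of Exosc6 overlap the last 1000 bases of Aars on the same strand and exons of Ddit3 those of Mars on the opposite strand, so their counts are uncertain to that extent.

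Smaller rises were called for 5 further cytosolic enzymes. Eprs, a fused enzyme for glutamate and proline, had 213 and 348 normalised counts in knockdown libraries and 149 and 118 in control libraries (2.05-fold). Yars, the tyrosine enzyme, had 809 and 898 in knockdown libraries and 399 and 443 in control libraries (2.03-fold). Wars, the tryptophan enzyme, had 498 and 690 in knockdown libraries and 299 and 294 in control libraries (1.97-fold). All 3 had groups that did not overlap. Hars, the histidine enzyme, had 463 and 518 in knockdown libraries and 251 and 318 in control libraries (1.73-fold). Vars, the valine enzyme, had 1210 and 1200 in knockdown libraries and 983 and 616 in control libraries (1.55-fold; limma, adjusted p = 0.0397). The Vars controls differed more from each other than the nearer of them did from the knockdown libraries. Vars lost its call without control replicate 2 (1.23-fold; limma, adjusted p = 0.397) and without either knockdown replicate (limma, adjusted p = 0.0943 and 0.0960). Without knockdown replicate 2 the adjusted p from limma was 0.148 for Eprs, 0.0641 for Wars and 0.0830 for Hars. Hars was also lost without control replicate 1 (limma, adjusted p = 0.0515).

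The calls were not shared by 5 cytosolic synthetase genes. Kars, the lysine enzyme of cytosol and mitochondria, had 1188 and 1308 normalised counts in knockdown libraries and 1324 and 1248 in control libraries. Its groups overlapped, and its log2 fold change was −0.04 with a standard error of 0.21 (limma, adjusted p = 0.892). Farsa, the alpha subunit of the phenylalanine enzyme, had 712 and 673 in knockdown libraries and 682 and 661 in control libraries (limma, adjusted p = 0.896). Farsb, which encodes the beta subunit, had 60.5 and 57.7 in knockdown libraries and 40.4 and 33.3 in control libraries, with a log2 fold change of 0.68 (limma, adjusted p = 0.121). Rars, the arginine enzyme, had 72.7 and 130 in knockdown libraries and 59.1 and 64.1 in control libraries (limma, adjusted p = 0.112). Rars passed in limma without knockdown replicate 1 (adjusted p = 0.0368), at equal totals (adjusted p = 0.0105) and with crossed replicate numbers (adjusted p = 0.0426). Sars, the serine enzyme, had 12 and 11 reads in knockdown libraries and 1 and 3 reads in control libraries. Its summed reads, scaled to the libraries, gave a ratio of 4.77 with an exact 95% counting interval of 1.63 to 19.0, and its limma adjusted p was 0.0858. The control mean of Sars, 1.71, was under the filter of 5, so it was tested only through its knockdown mean of 8.58. Its ratio is therefore no evidence of a rise. A missed threshold does not show that Farsb, Rars or Sars were alike in the groups.

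**Figure D2:**
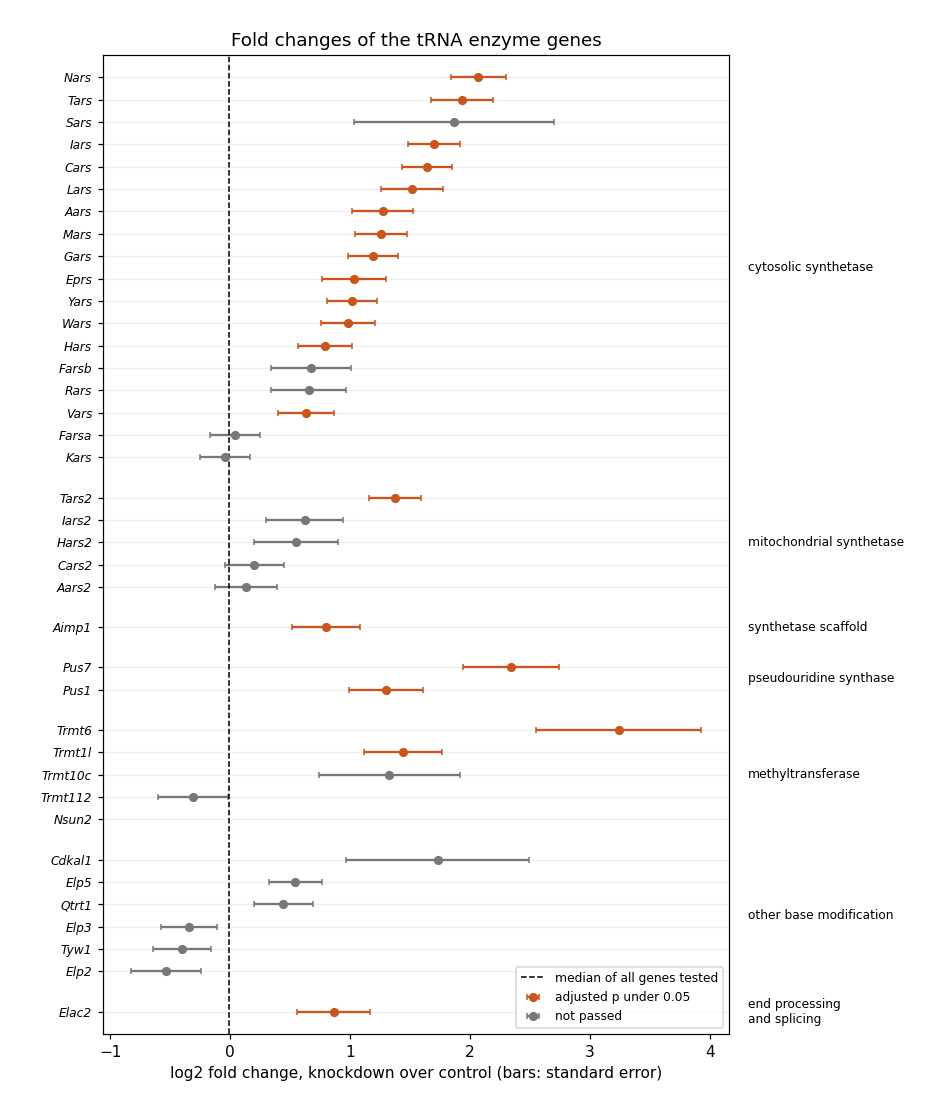
Log2 fold changes of the 37 tested genes, knockdown over control, with standard errors as bars, in the order of the plot of normalised counts. Called genes are in orange, and the dashed line is the median of all genes tested at −0.01; Nsun2 was not tested and has no point.

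Several ways of dividing the cytosolic enzymes were set side by side, with no test of the difference between the divisions. The share to set beside each count is the 15.9% of all genes tested that were called higher. On a list of 12 synthetase genes known as ATF4 targets, 11 were called higher and Sars was not, with a median log2 fold change of 1.40. Of the other 6 cytosolic genes 2 were called higher, Hars and Vars, with a median of 0.64. That list was written from general knowledge with earlier results of these data known, so its count is no independent evidence. The multi-synthetase complex gathers several synthetases and scaffold proteins into 1 particle. Among 7 of its genes 5 were called higher with a median of 1.04, and the scaffold gene Aimp1 is among both the 7 and the 5. Among the 12 cytosolic synthetases outside the complex, 9 were called higher with a median of 1.11. By the fold of the catalytic domain, 8 of 9 class I genes and 5 of 9 class II genes were called higher, with medians of 1.04 and 1.19. The fused enzyme Eprs, which was called higher, was counted in class I only. Aimp1, a scaffold protein of the complex, had 136 and 112 normalised counts in knockdown libraries and 61.0 and 81.2 in control libraries. Its groups did not overlap and it was called 1.74-fold higher (limma, adjusted p = 0.0324). Aimp1 also lost its call without knockdown replicate 1 (limma, adjusted p = 0.227) and without control replicate 1 (limma, adjusted p = 0.150).

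Promoter sequence was searched for a motif because so many members rose together. The motif TGATGNAA is the core of the composite element that ATF4 binds with a C/EBP partner, and its reverse complement is TTNCATCA. Windows of 300 bases, from 250 before to 50 after each annotated start site, were taken from RefSeq on build GRCm38.p6 and matched 27 of the 38 members. The motif was found on either strand in 6 of the 27 (22.2%), in 4.51% of all 27025 genes with a window, and in 2.65% of the 3779 tested genes with one. No match overlapped another. Cytosolic synthetases held it in 5 of 11 cases, mitochondrial synthetases in 0 of 4 and modification enzymes in 1 of 10. All 6 genes with a match, Gars, Iars, Tars, Yars and Pus7 among them, were in the set of 20 called higher. Of the 27 members with a window 13 were called higher, beside 15.9% of all genes tested. The share called higher among all tested genes with a match was not computed. As the search followed from the rises, the 6 matches are no independent evidence. A match is a description of letters in a window and not a site shown to be bound. Cars, Elp2, Elp3, Hars, Hars2, Lars, Nars, Rars, Trmt6, Vars and Wars had no window.

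The matches of 4 synthetase genes are shown because these genes are among those with the rises described above. Each line is read 5′ to 3′ on the strand of the gene, with the motif in capitals.
Gars, chr6:55037960-55037989, plus strand: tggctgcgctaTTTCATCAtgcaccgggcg
Iars, chr13:49682126-49682155, plus strand: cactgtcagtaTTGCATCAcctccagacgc
Tars, chr15:11399655-11399684, minus strand: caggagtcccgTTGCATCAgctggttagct
Yars, chr4:129189895-129189924, plus strand: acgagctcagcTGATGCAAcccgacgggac
The first base of the motif lay 30 bases before the start site in Gars and 15 before in Tars. In Iars it lay at base 8 of the RefSeq transcript and in Yars at base 4. These positions depend on the start site used, and in GENCODE Iars and Yars begin upstream, at 49682100 and 129189760. The bases after the RefSeq start site lay in the first 300 bases of a GENCODE transcript in 23 of the 27 members with a window. Iars and Tars each held the same 8 letters, TTGCATCA, which are the reverse complement of the letters in Yars.

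Mitochondrial synthetases were called higher in 1 of 5 cases, with a median log2 fold change of 0.55. The enzyme called was Tars2, for mitochondrial threonine, at 486 and 518 normalised counts in knockdown libraries and 205 and 182 in control libraries. Its groups were well apart, with a log2 fold change of 1.37 and a standard error of 0.22 (limma, adjusted p = 8.62e-05). Tars2 kept its call in every alternative run. Iars2, for isoleucine, had 63.0 and 82.2 in knockdown libraries and 54.1 and 39.8 in control libraries (limma, adjusted p = 0.141). Hars2, for histidine, had 62 and 98 reads in knockdown libraries and 32 and 60 reads in control libraries (limma, adjusted p = 0.236). In Iars2 and Hars2 the groups of normalised counts did not overlap but the gap between them was small. Cars2, for cysteine, had 305 and 205 normalised counts in knockdown libraries and 208 and 226 in control libraries. Aars2, for alanine, had 161 and 130 in knockdown libraries and 145 and 120 in control libraries. Both had overlapping groups, with log2 fold changes of 0.20 and 0.13. At equal library totals Iars2 and Hars2 passed too, so that 3 of the 5 were called, while the share of all genes called higher was 28.2% at equal totals and 15.9% as deposited.

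All 5 mitochondrial enzymes could be set beside the cytosolic enzyme for the same amino acid. The cytosolic gene was called higher in each of the 5 pairs. Its log2 fold change exceeded that of the mitochondrial gene by 1.44 for cysteine, 1.08 for isoleucine, 0.56 for threonine and 0.24 for histidine. For alanine it was 1.27, against 0.13 in Aars2. The histidine pair is the closest, with standard errors of 0.22 for Hars and 0.35 for Hars2 around their fold changes. The differences between the genes of a pair were not tested. Leaving out Gars and Kars, whose products serve both compartments, 12 of 16 cytosolic genes were called higher. As classes, 13 of 18 cytosolic and 1 of 5 mitochondrial genes were called, beside 15.9% of all genes, and 5 genes are few to judge the mitochondrial share by.

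**Figure D3:**
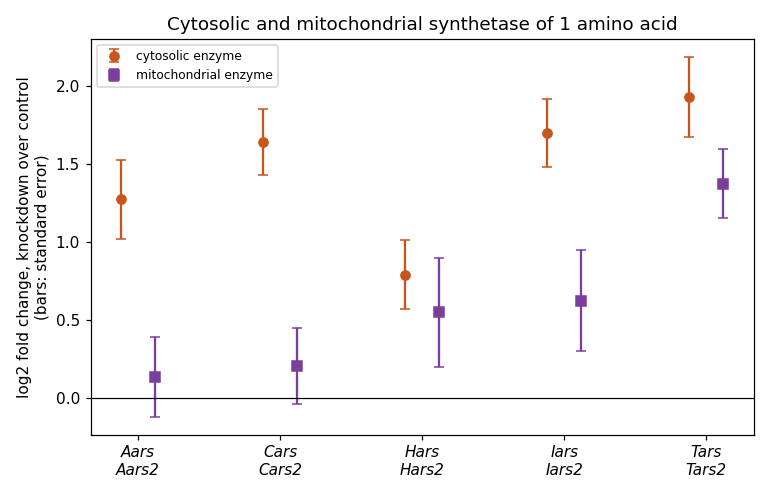
Log2 fold changes, knockdown over control, of 5 cytosolic synthetase genes (circles) and of the mitochondrial synthetase gene for the same amino acid (squares), with standard errors as bars. The cytosolic point is the higher in each pair, by 0.24 for Hars and Hars2 and by 1.44 for Cars and Cars2.

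Modification enzymes were called higher in 4 of 12 cases and lower in none, beside 15.9% and 21.6% of all genes. Their median log2 fold change was 0.92. That median falls in a gap between 0.54 for Elp5 and 1.30 for Pus1, and it moved to 0.49 when genes with a mean under 20 were left out. The 4 called genes were pseudouridine synthases and methyltransferases. None of 6 enzymes of other base modifications passed, but 6 genes are few to set beside the 15.9% of all genes called higher.

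Both pseudouridine synthases present rose. Pus7 had 68.6 and 71.3 normalised counts in knockdown libraries and 9.84 and 17.0 in control libraries. Each knockdown value was over 4 times the nearer control, and the rise was 5.07-fold (limma, adjusted p = 1.50e-04). It was 3.93-fold to 6.55-fold as each library was left out. Pus1, which acts on cytosolic and mitochondrial tRNA, had 92.8 and 132 in knockdown libraries and 40.4 and 48.7 in control libraries (2.46-fold; limma, adjusted p = 0.0026). Its adjusted p from limma without knockdown replicate 2 was 0.0693.

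Of 4 methyltransferase genes tested 2 rose. Trmt6, the partner subunit of the enzyme that methylates an adenosine in the T loop of tRNA, had the largest fold of all members. It had 54 and 67 reads in knockdown libraries and 12 and 1 reads in control libraries. On the normalised scale it stood at 43.6 and 45.5 in knockdown libraries and at 11.8 and 0.812 in control libraries. The knockdown libraries were close and the controls far apart, so the size of its fold rests on the control libraries. The fold was 9.45 in the fit of all libraries (limma, adjusted p = 0.0011), 25.1 without control replicate 1, 3.56 without control replicate 2 and 5.01 at a pseudocount of 5. Its summed reads gave a ratio of 7.72 with an exact 95% counting interval of 4.35 to 14.9. That interval covers counting error only and not the difference between the control libraries. Trmt1l, a relative of the guanosine methyltransferase Trmt1, had 85.6 and 91.0 normalised counts in knockdown libraries and 26.6 and 38.1 in control libraries (2.72-fold; limma, adjusted p = 0.0019). Exons of Rnf2 overlap the last 1000 bases of Trmt1l on the opposite strand.

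Trmt10c, a subunit of mitochondrial RNase P that also methylates tRNA, had 18 and 26 reads in knockdown libraries and 6 and 7 reads in control libraries. Its log2 fold change was 1.33 with a standard error of 0.59 (limma, adjusted p = 0.0836). Trmt112, a partner protein shared by several methyltransferases, had 94.4 and 63.9 normalised counts in knockdown libraries and 93.5 and 99.8 in control libraries. Its groups overlapped (limma, adjusted p = 0.433), and it has annotated pseudogenes and overlaps Prdx5 and Esrra on the opposite strand.

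Enzymes of the wobble base and anticodon loop gave values on both sides of 0. Among the 3 Elongator subunits, which serve modification of wobble uridines, Elp5 had 392 and 365 normalised counts in knockdown libraries and 241 and 279 in control libraries (log2 fold change 0.54; limma, adjusted p = 0.0612). Elp3, the catalytic subunit, had 228 and 282 in knockdown libraries and 281 and 368 in control libraries, with overlapping groups (−0.34; limma, adjusted p = 0.274). Elp2 had 99.3 and 81.5 in knockdown libraries and 167 and 102 in control libraries (−0.54; limma, adjusted p = 0.157), and its groups did not overlap by a small gap. Ikbkap, the older symbol of the Elongator scaffold, lies outside the symbol pattern and fell below the filter on low values. Elp2 was the 1 member called lower in any alternative, without control replicate 2 (limma, adjusted p = 0.0189). Elp5 passed at equal totals, under TMM scaling, by edgeR, without control replicate 2 and with crossed replicate numbers, with adjusted p-values of 0.0015 to 0.0408 (limma or edgeR). Qtrt1, the catalytic subunit that inserts queuine, had 174 and 166 in knockdown libraries and 133 and 118 in control libraries (0.44; limma, adjusted p = 0.172). Tyw1, which acts in wybutosine synthesis on phenylalanine tRNA, had 183 and 161 in knockdown libraries and 259 and 200 in control libraries (−0.40; limma, adjusted p = 0.207). The groups of Qtrt1 and of Tyw1 did not overlap, in opposite directions. Cdkal1, which adds a methylthio group to lysine tRNA, had 9 and 24 reads in knockdown libraries and 4 and 2 reads in control libraries. Its ratio of summed reads was 4.56 with an exact 95% counting interval of 1.89 to 13.3, and its limma adjusted p was 0.0812. The control mean of Cdkal1, 2.78, was under the filter of 5, so it was tested only through its knockdown mean of 11.8. Its ratio is therefore no evidence of a rise.

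Elac2, the RNase Z that trims the 3′ end of tRNA precursors, was the only member of end processing. It had 82.3 and 118 normalised counts in knockdown libraries and 48.2 and 60.1 in control libraries. The groups did not overlap and the rise was 1.82-fold (limma, adjusted p = 0.0327), but its adjusted p was 0.336 without knockdown replicate 2 and 0.108 without control replicate 1.

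Charging and modification genes were compared as classes. Charging enzymes were called higher in 14 of 23 cases with a median log2 fold change of 1.02, and modification enzymes in 4 of 12 cases with a median of 0.92, beside 15.9% of all genes called higher. With genes of mean under 20 left out, the median of the modification enzymes was 0.49. Negative fold changes, none of them called, were seen in 4 of the 12 modification genes and in 1 of the 23 charging genes, beside 2328 of all 4605 genes tested. At equal library totals 8 modification enzymes were called higher, and so were 28.2% of all genes.

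**Figure D4:**
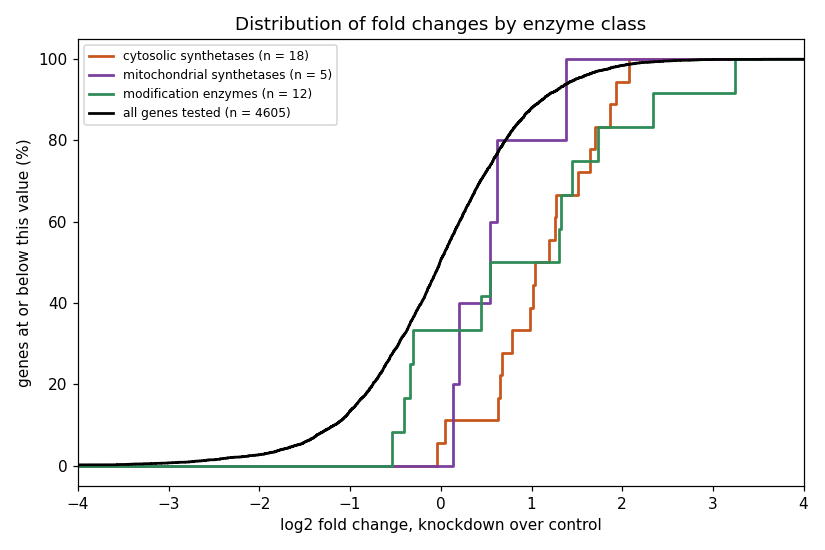
Cumulative share of genes (%) at or below each log2 fold change, knockdown over control, for cytosolic synthetases, mitochondrial synthetases, modification enzymes and all 4605 genes tested. The curve of the 18 cytosolic synthetases lies to the right of that of all genes over most of its length, whereas the curve of the 12 modification enzymes has a gap between 0.54 and 1.30.

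The class medians of both knockdown libraries lay above those of both control libraries. For cytosolic synthetases the median deviation from the gene mean was 0.40 and 0.74 on the log2 scale in knockdown libraries 1 and 2, against −0.58 and −0.60 in control libraries. For mitochondrial synthetases it was 0.22 and 0.48 in knockdown libraries and −0.16 and −0.20 in control libraries. For modification enzymes it was 0.33 and 0.49 in knockdown libraries and −0.29 and −0.39 in control libraries. In each class knockdown library 2 was above knockdown library 1, whereas the medians of all genes tested were −0.03 and 0.01 in these libraries.

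**Figure D5:**
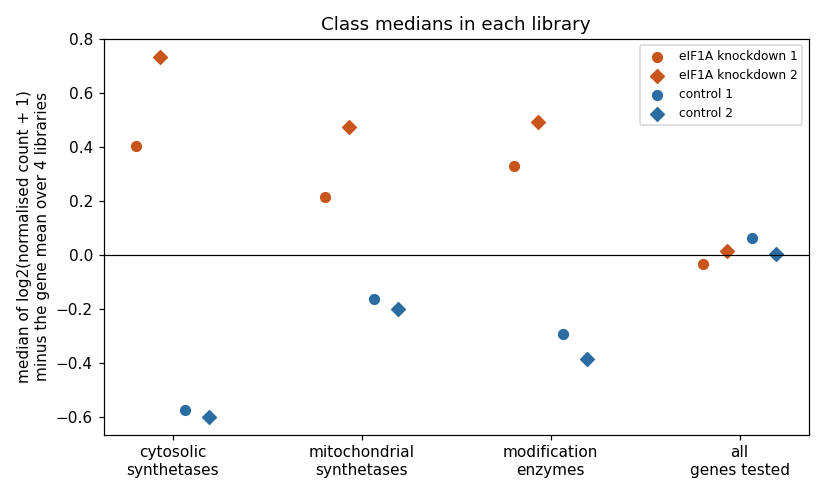
Median, over the genes of a class, of log2(normalised count + 1) minus the mean of the gene over the 4 libraries, with circles for libraries 1 and diamonds for libraries 2. Knockdown libraries (orange) lie above control libraries (blue) in the 3 enzyme classes, and all genes tested lie between −0.03 and 0.06.

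Other genes of tRNA biology were taken from a list of 74 symbols, of which 25 were in the table and 24 were tested. Of these 8 rose and 3 fell, with a median log2 fold change of 0.51, beside 15.9% higher and 21.6% lower among all genes. Wdr6, the partner of a ribose methyltransferase of the anticodon loop, fell to 295 and 253 normalised counts in knockdown libraries, against 1438 and 1368 in control libraries. The groups lay far apart and the log2 fold change was −2.36 (limma, adjusted p = 8.98e-08). Yrdc and Osgep act in the same pathway, which makes threonylcarbamoyladenosine, and they went opposite ways. Yrdc had 325 and 306 in knockdown libraries and 87.6 and 131 in control libraries (2.93-fold higher; limma, adjusted p = 9.93e-05). Osgep had 71.0 and 55.0 in knockdown libraries and 129 and 131 in control libraries (log2 fold change −1.04; limma, adjusted p = 0.0064).

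Of 4 subunits of nuclear RNase P, which cuts the 5′ end of tRNA precursors, Pop1 rose 3.47-fold and Pop5 2.28-fold. Rpp21 and Rpp30 were not called, with log2 fold changes of 0.29 and 0.64 (limma, adjusted p = 0.395 and 0.478). Nat10, which acetylates cytidines of tRNA and ribosomal RNA, rose 2.99-fold. Eef1e1, a scaffold protein of the multi-synthetase complex, rose 3.47-fold, with 55 and 43 reads in knockdown libraries and 9 and 13 reads in control libraries. Mettl6, a cytidine methyltransferase of serine tRNA, rose by 1.58 on the log2 scale. Xpo5, an exporter of structured RNA, rose 1.79-fold, and Dus1l, a dihydrouridine synthase, 1.74-fold. Rnh1, the ribonuclease inhibitor, had 3364 and 2808 normalised counts in knockdown libraries and 5034 and 5600 in control libraries (log2 fold change −0.79; limma, adjusted p = 0.0099). Without knockdown replicate 1 only 4 of these genes were called higher, with Eef1e1, Xpo5, Dus1l and Mettl6 lost. Xpo5 and Mettl6 were lost without knockdown replicate 2 as well. Without that replicate, and at equal totals, Wdr6 alone was called lower, with Osgep and Rnh1 lost.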

How the data were processed

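Per the labels' protocols, oligo(dT) beads took up polyadenylated RNA, from which bulk MARS-seq libraries were prepared for a NextSeq 500. The submitters' processing notes name STAR, HTSeq, DESeq2, cutadapt 1.8.3 and bcl2fastq 2.17.1.14, with build mm10. The sources used here do not give whether molecular identifiers were collapsed, whether strand was used or how genes were selected. The deposited signal is a normalised count, made by the authors with factors that are not given. All values of a column (100%, within 0.01 read) were whole multiples of 1 step, so reads were recovered, and on them edgeR called 807 genes higher and 909 lower. Genes with few reads have wide counting error, and intervals cover that error only. Replicate libraries differed by more than counting noise, at 13.8 chi-square units for each degree of freedom in knockdown libraries and 16.5 in control libraries, so each counted as 1 sample.

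The main test was limma 3.58.1 (R 4.3.3) on log2(value + 1), with a trend of variance on mean and no block, on 4605 genes with a mean of at least 5 and adjusted p under 0.05 after Benjamini-Hochberg adjustment. The code was run on simulated reads with the same spread for all genes and few genes changed, equally up and down. Those settings differ from these data, so the run checks the code and not the calls given here. Tried as alternatives were the block by replicate number, TMM, equal totals, no trend, a minimum mean of 20 or none, pseudocounts of 0.5 and 5, edgeR 4.0.16 and DESeq2 1.42.0 on recovered reads, an adjusted p of 0.1, at least 1.5-fold, and each library left out. The members, classes, gene lists and tests were chosen with earlier results of these data known. Every member is named, called members with their values in each library, and at least 2 members of smallest p in each class. The other tRNA genes named are those called, and Ikbkap, Rpp21 and Rpp30, named after their values were seen. Symbols were matched to GENCODE M21 (mm10), and exons of other genes lay in the last 1000 bases of 9 members: Aars on the same strand, and Cars2, Elac2, Farsb, Iars2, Mars, Trmt112, Trmt1l and Yars on the opposite strand. Kars and Trmt112 have named pseudogenes. Promoter sequence is printed for 4 of the 6 genes with a motif match, and that of 1 of the others is not reported here.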

Additional observations from a re-analysis of the deposited data

How the results depend on the processing

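Of the 20 members called higher, 13 kept their call under every alternative run, and the members called numbered 13 to 21 as each library was left out and 0 to 1 were called lower. With the replicate block 19 were called higher and Aimp1 was lost (limma, adjusted p = 0.0541). Numbered libraries share only a number: deviations of same-numbered libraries correlated at −0.129, and with crossed numbers, an alternative added after seeing the data, 22 were called. The counts were 22 by edgeR, 18 by DESeq2, where Aimp1 and Vars were lost, and 18 by limma without trend, where Aimp1, Elac2, Eprs, Hars and Vars were lost and Cdkal1, Sars and Trmt10c gained. Calls higher over all genes moved too, from 733 in the main fit to 641 with the replicate block and 891 with crossed numbers. They were 807 by edgeR, 620 by DESeq2 and 501 without trend.

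Over all genes 733 were called higher and 996 lower, against 1300 and 603 at equal totals, 438 and 715 without knockdown replicate 2 and 501 and 655 without trend. At equal totals the class medians were 1.47 for cytosolic synthetases, 0.89 for mitochondrial synthetases and 1.27 for modification enzymes, with 3 mitochondrial and 8 modification genes called higher, and 1 of the other tRNA genes lower. The modification median was 0.75 at a pseudocount of 5, 0.54 with no filter and 0.49 at a mean of at least 20. At an adjusted p under 0.1 (limma), 7 modification genes were called. The share of all genes at that threshold was not computed, so the 7 cannot be set beside it. The mitochondrial median ran from 0.27 to 0.75 as libraries were left out. As libraries were left out the other tRNA genes called numbered 4 to 10 higher and 1 to 4 lower, and 12 were called higher at equal totals. Genes with under 10 reads in a library (Trmt6, Sars, Cdkal1, Trmt10c and Nsun2) limit what can be said of their size of change. Sars and Cdkal1 passed the filter only through their knockdown values, so calls gained for them are no evidence of a rise.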
